A study of Mus musculus with 20 samples.

Results

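Transcript levels of 9 genes of branched-chain amino acid breakdown (Bcat2, Bckdha, Bckdhb, Dbt, Ivd, Mccc1, Mccc2, Auh and Acadsb) were examined in mouse islets and islet grafts. The genes were chosen by their place in the pathway, out of 19938 genes measured by a probe set with a single gene symbol. Each of the 9 was measured by 1 such probe set. The choice was made with earlier results of these data known. The labels give the strain of every sample as C57bl6/J. The first pair of groups held islets taken from the pancreas of female mice, either non-pregnant (NP, n = 4 arrays) or on day 12.5 of pregnancy (P12.5, n = 4 arrays). The other 4 groups (n = 3 arrays each) held grafts of female or male donor islets, recovered from below the kidney capsule of female hosts that were NP or P12.5. All graft hosts, the NP hosts included, had been made diabetic with streptozotocin, a toxin of beta cells, and hosts were mated only once the graft had restored their blood glucose. Hosts were 8 to 12 weeks old at that treatment and donors were about 12 weeks old, while ages of the non-transplanted mice were not given in the sources used here. The islet arrays are marked in the labels as a reanalysis of existing data. Transplantation, streptozotocin and array batch therefore cannot be told apart when grafts are compared with islets. The grafts of either donor sex address whether male islets can respond to pregnancy as female islets do.

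Leucine, isoleucine and valine share the first steps of their breakdown. A transaminase removes the amino group, which yields branched-chain keto acids, and the branched-chain keto acid dehydrogenase complex (BCKDH) then removes carbon dioxide in the mitochondrion and attaches coenzyme A. The routes part at the next step, where a separate acyl-CoA dehydrogenase acts on each product, and the leucine route goes on to acetyl-CoA and acetoacetate, a ketone body. In beta cells leucine is known as a fuel that stimulates insulin secretion, and as an activator of glutamate dehydrogenase.

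Ivd encodes isovaleryl-CoA dehydrogenase, the enzyme of the leucine route just after BCKDH. The hormones prolactin and placental lactogen act on islets in pregnancy through the prolactin receptor and the factor STAT5, which is known to bind DNA with the letters TTCNNNGAA. The 250 bases before the Ivd start site are printed here because Ivd was the member called higher in every pregnancy comparison below. The rule for a call is given below, and the capitals mark a match to those letters. The sequence is from RefSeq, build GRCm38.p6, chr2:118861744-118861993, plus strand.
Ivd: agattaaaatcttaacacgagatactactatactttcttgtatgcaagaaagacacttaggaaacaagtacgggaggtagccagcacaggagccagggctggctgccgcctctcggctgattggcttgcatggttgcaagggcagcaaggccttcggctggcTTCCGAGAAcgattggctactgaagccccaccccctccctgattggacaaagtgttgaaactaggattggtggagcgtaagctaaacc
The first base of the match lies 88 bases before the start site. The letters read the same on both strands, so 1 search covered both, and they were present in the 250 upstream bases of 2306 of 32851 mouse promoters (7.02%). The other members except Dbt were looked up in the same way, and the Ivd promoter was the 1 promoter with a match among 10 promoters of 8 members. A match describes the sequence and does not show binding.

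Levels are given as log2 expression values of the probe set, rounded to 1 decimal in the deposited table, so 1 unit is a doubling and the smallest step is 0.1. Levels of different genes were not compared, since probe sets differ in brightness. A gene was called changed at an adjusted p under 0.05 (limma, Benjamini-Hochberg over all 35511 probe sets) with a fold change of at least 1.5, which is 0.585 on the log2 scale. Array medians lay between 5.9 and 6.0. The mean of 11 beta cell markers was 10.7 to 11.4 on all 20 arrays, so the islet label held in grafts and islets. Changes of the single beta cell markers with pregnancy ran from -0.275 to 0.625 in islets and from -0.65 to 0.57 over grafts of both sexes. Of the 11, 1 was called higher in islets and 1 lower over those grafts, beside 0.724% and 3.96% of all probe sets called. Over those grafts 4 of the 11 had an adjusted p under 0.05 (limma), beside 13.0% of all probe sets. The mean of 9 acinar markers was 7.78 to 9.59 in islets and 5.24 to 5.62 in grafts, whereas 13 stromal markers averaged 6.46 to 6.91 in islets and 8.06 to 9.73 in grafts. Tissue was measured in bulk, so fewer cells of a type and less RNA per cell cannot be told apart.

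**Figure D1:**
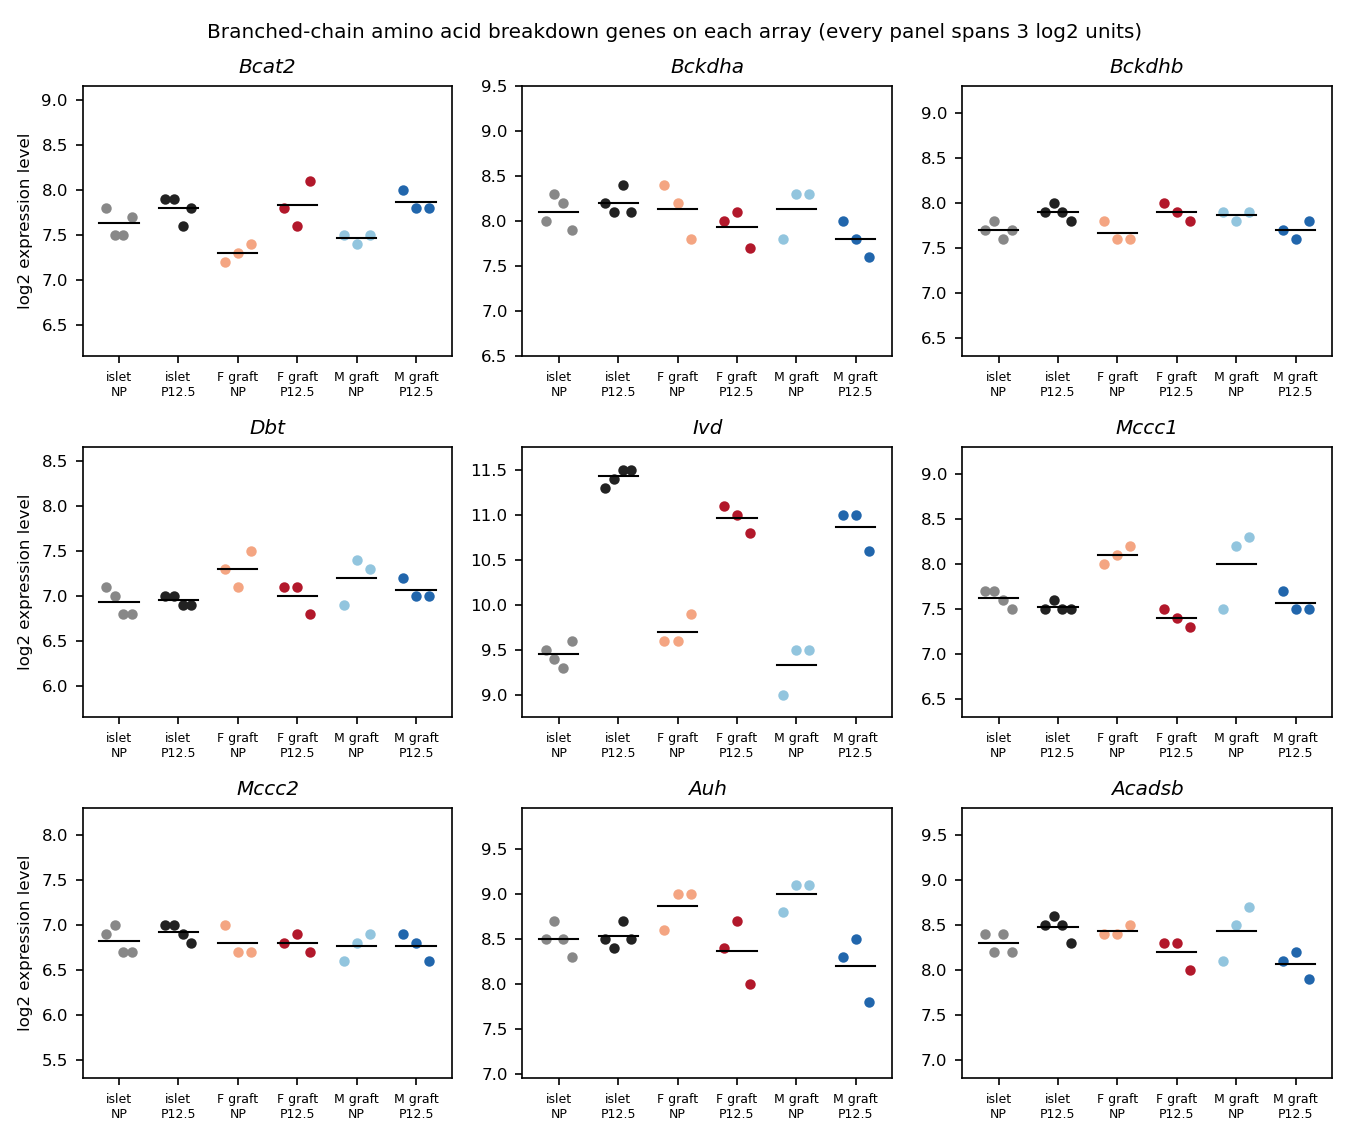
Log2 expression level (vertical axis, 3 units in every panel) of the 9 genes on each array of the 6 groups (horizontal axis; NP, non-pregnant; P12.5, pregnancy day 12.5; F and M, female and male donor). Points are arrays and horizontal bars are group means; Ivd separates P12.5 (10.6 to 11.5) from NP (9.0 to 9.9) in every pair of groups, while Mccc2 stays between 6.6 and 7.0.

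In islets of the pancreas, Ivd rose almost 4-fold in pregnancy, and none of the 8 other members was called. Ivd read 9.5, 9.4, 9.3 and 9.6 on the NP arrays and 11.3, 11.4, 11.5 and 11.5 on the P12.5 arrays (means 9.45 ± 0.13 and 11.43 ± 0.10, SD, n = 4 each). The groups did not overlap, and the gap between them was far wider than the spread within either. The change was 1.98 ± 0.09 (SE) on the log2 scale, or 3.93-fold (limma, adjusted p = 1.72e-05). Ivd belongs to a 12-gene signature that the study picked for its rise in pregnant islets in earlier work, from which these reanalysed arrays may stem, and its direction in islets adds no independent evidence. The share of all probe sets called in this comparison was 0.724%, against 1 of the 9 members.

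The other members of the pathway moved little in these islets. Their changes ran from -0.10 for Mccc1 to 0.20 for Bckdhb, with a median of 0.10 beside a median of 0 over all probe sets. The 95% intervals of all 8 lay inside a 1.5-fold change in either direction, with -0.26 as the lowest bound and 0.40 as the highest. Bckdhb, which encodes the beta chain of the decarboxylase subunit of BCKDH, read 7.7, 7.8, 7.6 and 7.7 in NP islets and 7.9, 8.0, 7.9 and 7.8 in P12.5 islets. These ranges touched at 7.8, and the change of 0.20 ± 0.07 had an unadjusted p of 0.0235 and an adjusted p of 0.308 (limma). Bcat2, which encodes the mitochondrial transaminase, differed by 0.18 ± 0.10 (adjusted p = 0.566) and Acadsb, the dehydrogenase of the isoleucine route, by 0.18 ± 0.09 (adjusted p = 0.511).

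In grafts of female donors, Ivd again was the called member, at 2.41-fold. Its levels were 9.6, 9.6 and 9.9 in NP hosts and 11.1, 11.0 and 10.8 in P12.5 hosts, with no overlap. The change was 1.27 ± 0.17 (adjusted p = 0.0105, n = 3 and 3). Across all probe sets 1.70% were called in female grafts. The call was lost when P12.5 replicate 2 was left out (1.25, adjusted p = 0.0502), although the size of the change hardly moved.

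Male donor grafts gave a like picture for Ivd. Levels were 9.0, 9.5 and 9.5 in NP hosts and 11.0, 11.0 and 10.6 in P12.5 hosts, so every pregnant array was higher than every non-pregnant one. Ivd rose 2.89-fold (1.53 ± 0.17, adjusted p = 0.00356), and it was the 1 called member, beside 0.932% of probe sets called. The response of male grafts exceeded that of female grafts by 0.27 ± 0.24, with a 95% interval from -0.26 to 0.79 (limma interaction, adjusted p = 0.976). A difference between the donor sexes was thus not detectable with 3 arrays a group, and the interval still allows one of more than 1.5-fold.

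**Figure D2:**
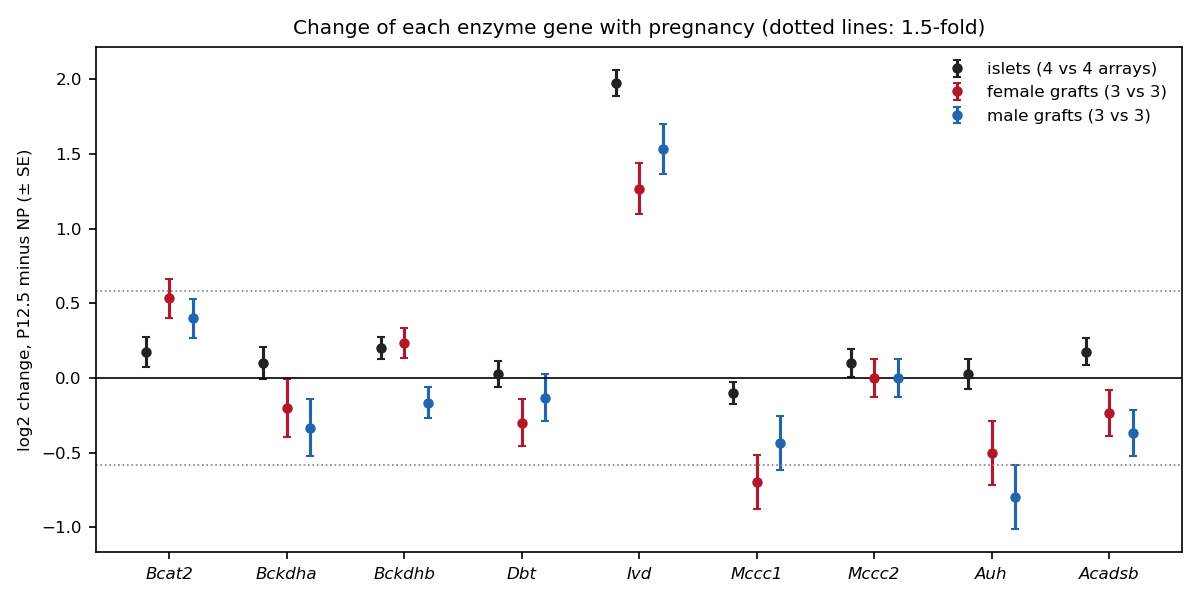
Log2 change from NP to P12.5 (vertical axis, mean ± SE of the limma fit) of each of the 9 genes (horizontal axis) in islets (black, 4 against 4 arrays), female grafts (red, 3 against 3) and male grafts (blue, 3 against 3). Dotted lines mark a 1.5-fold change; Ivd lies at 1.98, 1.27 and 1.53, and the other 8 genes lie between -0.10 and 0.20 in islets and between -0.80 and 0.53 in grafts.

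At the first step, Bcat2 was higher in pregnancy in grafts of both donor sexes, short of the fold required for a call. Female grafts read 7.2, 7.3 and 7.4 in NP hosts and 7.8, 7.6 and 8.1 in P12.5 hosts. Male grafts read 7.5, 7.4 and 7.5 in NP hosts and 8.0, 7.8 and 7.8 in P12.5 hosts. Neither pair of groups overlapped, and over both sexes the 6 NP arrays (7.2 to 7.5) lay below the 6 P12.5 arrays (7.6 to 8.1). The difference was 0.53 ± 0.13 in female grafts (adjusted p = 0.0606) and 0.40 ± 0.13 in male grafts (adjusted p = 0.141). Taken over both donor sexes it was 0.47 ± 0.09, or 1.38-fold (adjusted p = 0.0116).

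The 3 BCKDH subunit genes gave no call in any graft comparison. Bckdha, for the alpha chain of the decarboxylase, read 8.4, 8.2 and 7.8 in female NP grafts and 8.0, 8.1 and 7.7 in female P12.5 grafts, ranges that overlapped (-0.20 ± 0.19, adjusted p = 0.599). Its male grafts overlapped as well, at 7.8, 8.3 and 8.3 against 8.0, 7.8 and 7.6 (-0.33 ± 0.19, adjusted p = 0.362). Dbt, for the transacylase core of the complex, differed by -0.30 ± 0.16 in female grafts (adjusted p = 0.297) and by -0.13 ± 0.16 in male grafts (adjusted p = 0.673). Bckdhb differed in sign between the sexes: 0.23 ± 0.10 in female grafts (7.8, 7.6 and 7.6 against 8.0, 7.9 and 7.8) and -0.17 ± 0.10 in male grafts (7.9, 7.8 and 7.9 against 7.7, 7.6 and 7.8). The male response minus the female response was -0.40 ± 0.15, with an unadjusted p of 0.0187 and an adjusted p of 0.955 (limma). That difference therefore did not pass the test over all probe sets.

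Further along the leucine route, Mccc1 and Auh were lower in grafts of pregnant hosts, while Mccc2 was level. In the main fits Mccc1 was not called in female grafts, in male grafts or over both sexes. Mccc1 encodes the biotin-carrying alpha subunit of methylcrotonyl-CoA carboxylase, which acts on the product of the Ivd enzyme. It read 8.0, 8.1 and 8.2 in female NP grafts and 7.5, 7.4 and 7.3 in female P12.5 grafts, without overlap (-0.70 ± 0.18, adjusted p = 0.0687). This female difference was called when all 20 arrays were fitted together (adjusted p = 0.0097) and when the female graft arrays were fitted alone (adjusted p = 0.04995). In male grafts it read 7.5, 8.2 and 8.3 in NP hosts and 7.7, 7.5 and 7.5 in P12.5 hosts, where NP replicate 1 sat among the pregnant arrays (-0.43 ± 0.18, adjusted p = 0.219). Without that array the male difference was -0.68 and was called (adjusted p = 0.0341). Over both sexes the difference was -0.57 ± 0.13, or 1.48-fold (adjusted p = 0.0193), which fell short of the fold required. It was called over both sexes with array medians subtracted (-0.63, adjusted p = 0.014) and without any 1 of 4 arrays (-0.59 to -0.69). It stayed uncalled in the other 8 of the 12 fits that left out an array. With the mean of kidney markers as a covariate it was not called either (limma, -0.46, adjusted p = 0.0812). In that fit the female difference was -0.47 (limma, adjusted p = 0.507) and the male difference -0.44 (adjusted p = 0.191).

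Mccc2 encodes the beta subunit of the same carboxylase. Female grafts read 7.0, 6.7 and 6.7 in NP hosts and 6.8, 6.9 and 6.7 in P12.5 hosts, and male grafts read 6.6, 6.8 and 6.9 against 6.9, 6.8 and 6.6. The mean differences were 0.00 ± 0.13 in each sex. Over both sexes the 95% interval of the Mccc2 difference ran from -0.20 to 0.20, inside a 1.5-fold change, whereas that of Mccc1 ran from -0.85 to -0.29.

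Auh encodes methylglutaconyl-CoA hydratase, the following enzyme of the leucine route. Female grafts read 8.6, 9.0 and 9.0 in NP hosts and 8.4, 8.7 and 8.0 in P12.5 hosts, an overlap of 1 array (-0.50 ± 0.21, adjusted p = 0.209). Male grafts read 8.8, 9.1 and 9.1 in NP hosts and 8.3, 8.5 and 7.8 in P12.5 hosts, with no overlap (-0.80 ± 0.21, adjusted p = 0.0944), a difference that was called with all 20 arrays in the fit (adjusted p = 0.0191). Over both sexes Auh fell by 0.65 on the log2 scale (SE 0.15, 1.57-fold, adjusted p = 0.0213) and was called. The call was lost without female P12.5 replicate 3 (-0.56), without male P12.5 replicate 3 (-0.55) or without male NP replicate 3 (-0.63, adjusted p = 0.0515). Female and male P12.5 replicate 3 also had the highest stromal means (9.30 and 9.73) and endothelial means (7.70 and 8.05) of their groups. Their beta cell marker means were the lowest of their groups (11.0 and 10.7). Male NP replicate 3 had means of 8.55, 6.66 and 11.1 for these 3 marker lists. Over both sexes 6 of 18 immune markers were called lower in pregnancy too. The part of all these markers in the Auh difference was not tested. Acadsb differed by -0.30 ± 0.11 over both sexes (adjusted p = 0.0907), and its female groups, 8.4, 8.4 and 8.5 against 8.3, 8.3 and 8.0, did not overlap.

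Counted over both donor sexes, Ivd rose, Auh fell and 7 members were not called, beside 3.96% of all probe sets called. Without the fold minimum, 4 of the 9 members had an adjusted p under 0.05 (Ivd, Bcat2, Mccc1 and Auh), against 13.0% of all probe sets. The median change of the 9 members was -0.22, beside 0.02 over all probe sets. The female and male comparisons enter this average, so the 3 counts are not separate evidence.

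Kidney transcripts differed between graft arrays and moved with some of these genes. The mean of 21 kidney markers was 5.37 to 5.52 in islets, between the lower quartile (4.7 to 4.9) and the median of the arrays. In female grafts it was 8.51, 7.87 and 7.91 in NP hosts and 7.20, 5.91 and 7.10 in P12.5 hosts, so the groups did not overlap. In male grafts it was 6.43, 8.12 and 7.61 in NP hosts and 8.12, 6.35 and 7.83 in P12.5 hosts, with nearly equal means (7.39 and 7.43). None of the 21 kidney markers was called in female grafts or in male grafts by limma, and 1 was called lower over both sexes. In female grafts, however, 19 of the 21 were lower in pregnancy (median -1.60). An unadjusted p under 0.05 was held by 10 of the 21 there, beside 21.2% of all probe sets. In male grafts 10 were lower and 8 higher (median 0), with 1 at an unadjusted p under 0.05, beside 19.5%. Male NP replicate 1, with the low Mccc1 level, had the lowest kidney mean of the male NP arrays. Male P12.5 replicates 1 and 3, with kidney means of 8.12 and 7.83, also had low Mccc1 levels (7.7 and 7.5).

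Immune and endothelial markers also moved with pregnancy in the grafts, mainly those of male donors. The mean of 18 immune markers was 8.08, 7.89 and 7.57 in male NP grafts and 7.29, 7.12 and 7.37 in male P12.5 grafts, so these groups did not overlap. In male grafts 12 of the 18 were lower in pregnancy and 3 were called lower, with a median of -0.52. Female grafts overlapped, at 7.42, 7.26 and 7.14 against 6.84, 7.20 and 7.66, with a median of -0.07 and 0 called by limma (1 at an unadjusted p under 0.05). The 11 endothelial markers were all higher in male P12.5 grafts, with a median of 0.67, and their mean ranged from 6.63 to 7.05 in NP and from 6.89 to 8.05 in P12.5 hosts. In female grafts 10 of the 11 were higher (median 0.17), and over both sexes 11 of 11 were higher (median 0.40), with 0 called by limma and 2 at an unadjusted p under 0.05. The part of these markers in the members' differences was not tested.

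Over the 12 graft arrays, Pearson's r with the kidney mean was 0.66 for Mccc1 and 0.59 for Dbt, as a description over arrays that share groups. It was 0.07 for Auh, -0.31 for Bcat2 and -0.32 for Ivd. With the kidney mean as a covariate, the difference over both sexes was 1.43 for Ivd (adjusted p = 0.00242), 0.51 for Bcat2 (adjusted p = 0.0352) and -0.75 for Auh (adjusted p = 0.041). Mccc1 differed by -0.46 in that fit (adjusted p = 0.0812). In female grafts alone the covariate left Ivd at 1.34 but without a call (adjusted p = 0.142), and 3 probe sets in all were called. In male grafts, whose kidney means overlapped, Ivd stayed called at 1.53 (adjusted p = 0.00725) and Auh stood at -0.79 (adjusted p = 0.104).

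**Figure D3:**
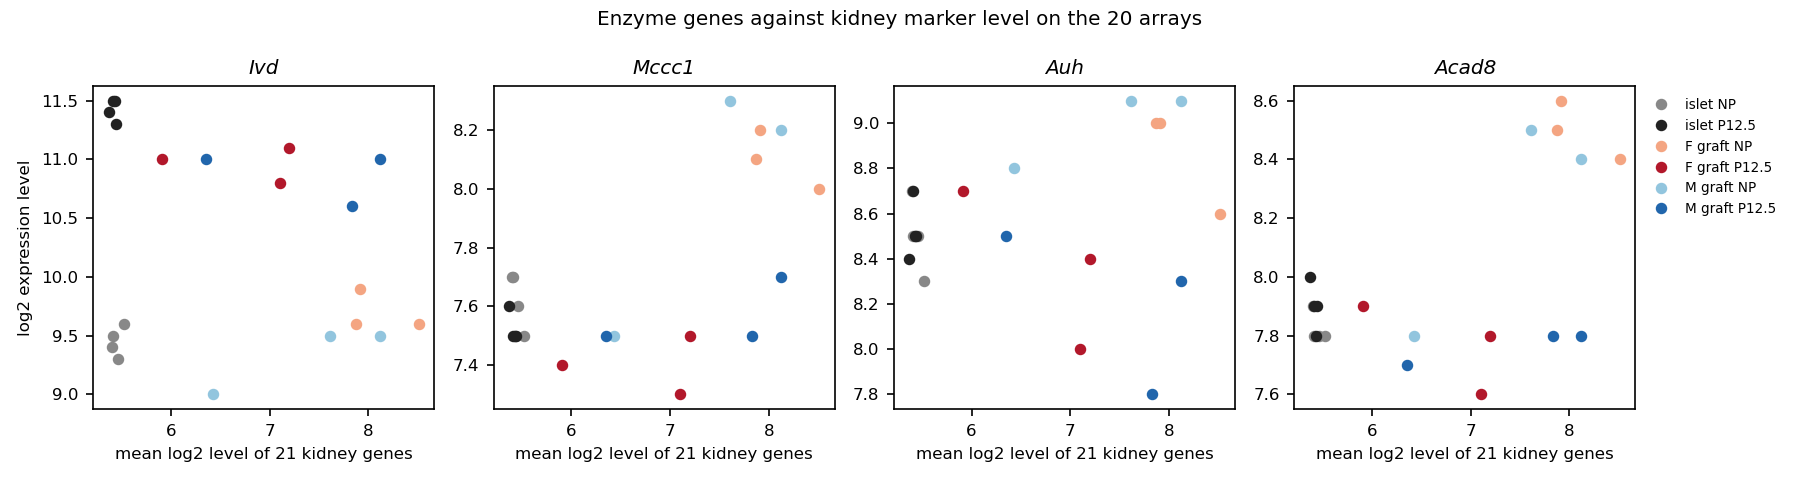
Log2 expression level of Ivd, Mccc1, Auh and Acad8 (vertical axes, each with its own scale) against the mean log2 level of 21 kidney marker genes (horizontal axis) on the 20 arrays, coloured by group; some islet points lie on top of each other. NP grafts at kidney means of 7.61 to 8.51 hold the highest Mccc1 levels (8.0 to 8.3). Male P12.5 grafts at kidney means of 7.83 and 8.12 read 7.5 and 7.7 for Mccc1. Ivd separates pregnant from non-pregnant arrays at both ends of the axis.

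Donor sex made no called difference to any member in either state. In NP hosts the male minus female difference ran from -0.37 for Ivd to 0.20 for Bckdhb, and 0 members were called by limma (0.0141% of all probe sets were), with 0 at an unadjusted p under 0.05 (5.0% of all probe sets). The Ivd arrays of NP grafts did not overlap, at 9.6, 9.6 and 9.9 for female donors and 9.0, 9.5 and 9.5 for male donors, but the difference of -0.37 ± 0.17 had an adjusted p of 0.977. In P12.5 hosts the members differed by -0.20 to 0.17, again with 0 called (0.0113% of all probe sets were) and 0 at an unadjusted p under 0.05 (3.58% of all probe sets). For the response to pregnancy the members differed by -0.40 to 0.27 between the sexes, with 0 called, beside 0% of all probe sets, and 1 of 9 (Bckdhb) at an unadjusted p under 0.05, beside 4.99%. The 95% intervals of this last comparison reached from -0.97 to 0.83, past 1.5-fold in either direction. Tissue content differed between the sexes as well. In NP hosts all 21 kidney markers were lower in male grafts (median -0.80) and 15 of 18 immune markers were higher (median 0.63). For the response, all 21 kidney markers were higher in male grafts (median 1.17) and 16 of 18 immune markers were lower (median -0.60). The part of these markers in the differences between the sexes was not tested.

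Set against islets of the pancreas, female grafts of NP hosts differed in 3 members at an adjusted p under 0.05, none by 1.5-fold. Mccc1 was higher in the grafts (8.0 to 8.2 against 7.5 to 7.7, 0.48 ± 0.14, adjusted p = 0.0179), as was Dbt (7.1 to 7.5 against 6.8 to 7.1, 0.38 ± 0.13, adjusted p = 0.0355). Bcat2 was lower (7.2 to 7.4 against 7.5 to 7.8, -0.33 ± 0.12, adjusted p = 0.0453). Hence 0 of 9 members were called by limma, beside 11.0% of all probe sets, and 3 of 9 passed without the fold minimum, beside 28.5%. At an unadjusted p under 0.05 stood 4 of 9 members, close to the 40.8% of all probe sets. Ivd differed by 0.25 ± 0.14 (adjusted p = 0.178).

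In P12.5 mice Ivd was lower in female grafts than in islets, without reaching the threshold. The grafts read 10.8 to 11.1 and the islets 11.3 to 11.5, which did not overlap (-0.46 ± 0.14, adjusted p = 0.0514). Of the members, 0 were called by limma, beside 4.05% of all probe sets. An unadjusted p under 0.05 was held by 2 of 9 members (Ivd and Acadsb), close to the 23.4% of all probe sets. The response of Ivd to pregnancy was smaller in female grafts than in islets by 0.71 ± 0.19, with an unadjusted p of 0.00179 but an adjusted p of 0.149. Across the members this difference of responses gave 0 calls by limma, beside 0.0507% of all probe sets, and 5 of 9 unadjusted p under 0.05 (Ivd, Mccc1, Acadsb, Bcat2 and Auh), beside 14.1%. Mccc1 stood next to Ivd in size (-0.60 ± 0.20, adjusted p = 0.209). The mean of 18 immune markers was 5.76 to 5.95 in islets and 6.84 to 7.66 in female grafts, and kidney and stromal markers were higher in the grafts too. At P12.5 all 11 beta cell markers were lower in the grafts (median -0.17, 0 called by limma). The part of all these markers in the differences was not tested.

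The rest of the pathway was described from lists of the other steps, of BCKDH control and cofactors, of amino acid carriers, of other acyl-CoA dehydrogenases, of ketone body enzymes and of leucine sensing. In islets, Gcdh was the 1 gene called on any of these lists. Gcdh encodes glutaryl-CoA dehydrogenase of lysine and tryptophan breakdown, a relative of the Ivd enzyme. It read 7.8, 7.6, 7.7 and 7.5 in NP islets and 8.4, 8.5, 8.4 and 8.3 in P12.5 islets (0.75 ± 0.08, 1.68-fold, adjusted p = 0.00306), with no overlap. In female and male grafts the Gcdh difference was 0.03 ± 0.19 and 0.30 ± 0.19.

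Bckdk, the kinase that phosphorylates and inactivates BCKDH, was higher in pregnant islets by 0.55 ± 0.07, or 1.46-fold (adjusted p = 0.00575), just short of the fold required. Its levels were 8.9, 9.0, 8.9 and 8.8 in NP islets and 9.4, 9.5, 9.4 and 9.5 in P12.5 islets, without overlap. Over grafts of both sexes Bckdk differed by 0.43 ± 0.12 (adjusted p = 0.0375). Ppm1k, the phosphatase that reverses the kinase, differed by 0.15 ± 0.11 in islets (adjusted p = 0.667) and by -0.43 ± 0.14 over the grafts (adjusted p = 0.0644).

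Among the 15 other genes of the shared, valine, isoleucine and later steps, 0 were called in islets by limma (1 at an unadjusted p under 0.05, beside 11.8% of all probe sets), with a median change of 0.08. In the grafts most of them lay lower in pregnancy: 12 of 15 in female grafts and 13 of 15 in male grafts, with medians of -0.27 and -0.20 beside 0.03 and 0 over all probe sets. Kidney markers were lower in the same female comparison (19 of 21, median -1.60), and in male grafts immune markers were lower (12 of 18, median -0.52) and endothelial markers higher (11 of 11, median 0.67); their part in the shift of these genes was not tested. Acad8, the dehydrogenase of the valine route that matches Ivd and Acadsb, was the 1 called gene of them. It read 8.4, 8.5 and 8.6 in female NP grafts and 7.8, 7.9 and 7.6 in female P12.5 grafts, and fell by 0.73 on the log2 scale (SE 0.17, adjusted p = 0.0481). In male grafts it read 7.8, 8.4 and 8.5 in NP hosts and 7.8, 7.7 and 7.8 in P12.5 hosts, where the ranges met at 7.8 (-0.47 ± 0.17, adjusted p = 0.167). Over both sexes Acad8 fell by 0.60 (SE 0.12, adjusted p = 0.0114), a call that was lost for want of fold without any 1 of 5 of the 12 arrays (female P12.5 replicate 3, female NP replicate 3, male P12.5 replicate 2, and male NP replicates 2 and 3) and with renewed quantile normalization (-0.58). With an array left out it ranged from -0.71 to -0.53. Its female call was lost without any 1 of the 6 female arrays, and with the kidney mean as a covariate the differences were -0.59 in female grafts (adjusted p = 0.416) and -0.53 over both sexes (adjusted p = 0.0553). Pearson's r of Acad8 with the kidney mean over the 12 graft arrays was 0.58.

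Of the remaining genes followed whatever their values, Bcat1, the cytosolic transaminase, differed by -0.08 ± 0.09 in islets and 0.18 ± 0.09 over the grafts. Dld, the dehydrogenase subunit that BCKDH shares with other complexes, differed by 0.08 ± 0.08 and -0.15 ± 0.09. Neither difference passed the threshold. Slc25a44, the mitochondrial carrier of branched-chain amino acids, stood at -0.03 ± 0.07 in islets and at -0.52 ± 0.14 over the grafts (adjusted p = 0.0372, 1.43-fold). Glud1, the glutamate dehydrogenase that leucine activates, stood at -0.03 ± 0.10 in islets and -0.43 ± 0.09 over the grafts (adjusted p = 0.0123, 1.35-fold), both short of the fold required. Slc7a5, a plasma membrane carrier of leucine, differed by 0.28 ± 0.07 in islets (adjusted p = 0.115) and by 0.07 ± 0.13 over the grafts.

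**Figure D4:**
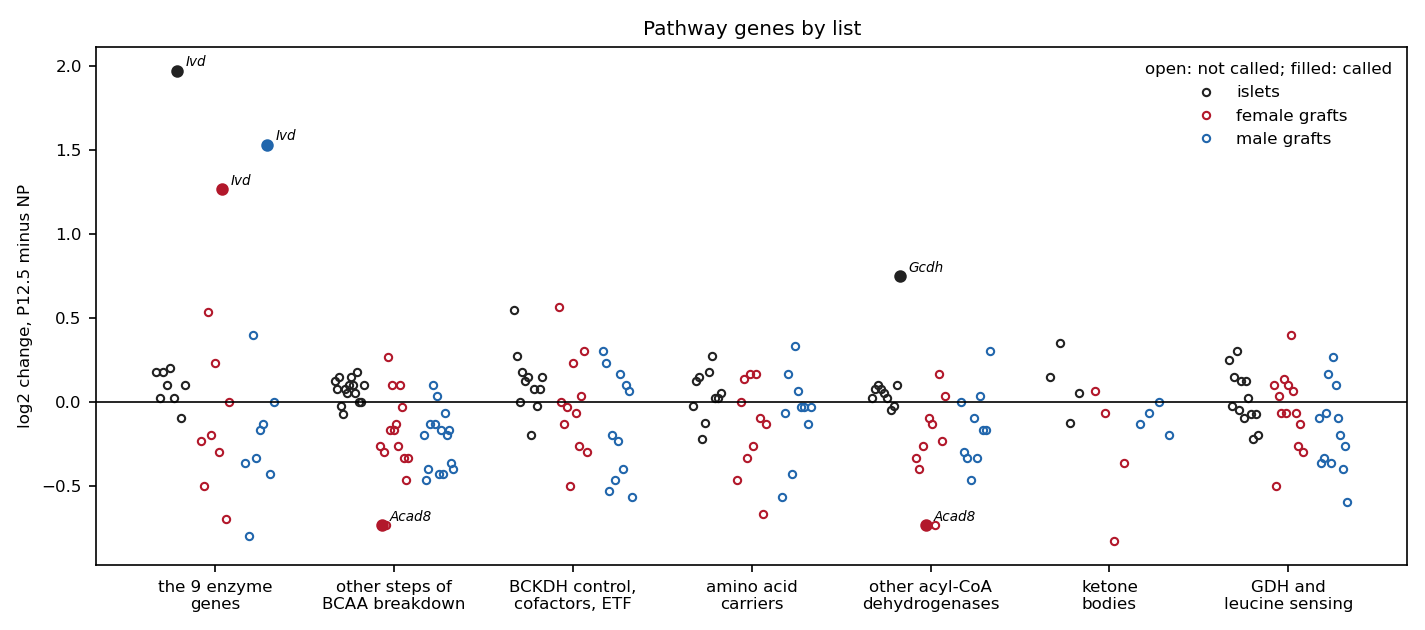
Log2 change from NP to P12.5 (vertical axis) of each measured gene of the 9 members and 6 further lists (horizontal axis) in islets (black), female grafts (red) and male grafts (blue); BCAA, branched-chain amino acid; ETF, electron transfer flavoprotein; GDH, glutamate dehydrogenase. Filled, named points are called; Acad8 stands on 2 lists, and Ivd is the 1 gene filled in all 3 comparisons.

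In NP mice, 8 of the 62 genes of these lists were called higher in female grafts than in islets and 0 were called lower, beside 5.99% and 5.02% of all probe sets. They included Acadm (1.07 ± 0.22) and Acad8 (0.68 ± 0.13) of the acyl-CoA dehydrogenases, and Aldh6a1 (0.65 ± 0.20) and Acaa2 (0.84 ± 0.18) of the later steps. The others were the carriers Slc43a1 (0.63 ± 0.20) and Slc7a7 (1.59 ± 0.29), Etfdh (0.61 ± 0.13) and Bdh2 (1.64 ± 0.29). The Etfdh enzyme takes electrons from the electron transfer flavoprotein, which receives them from acyl-CoA dehydrogenases. The calls of Acad8 (0.54), Slc43a1 (0.55), Etfdh (0.54) and Aldh6a1 (0.45) were lost when grafts of both donor sexes were set against islets. Slc43a1 also lost its call without any 1 of 4 of the 7 arrays (0.50 to 0.80 over the 7 fits), Aldh6a1 without any 1 of 3 (0.55 to 0.80) and Etfdh without female NP graft replicate 2 (0.53) or with renewed quantile normalization (0.57). The kidney marker mean was 7.87 to 8.51 in those grafts and no more than 5.52 in those islets. Its part in these differences was not tested. The 9 members gave 0 calls in the same comparison.

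Over all 20 arrays the genes that followed Ivd most closely were Cldn8, Tph2, Chgb, Tmem255a and Sftpd. Pearson's r over the 20 arrays was 0.98 for the tight junction gene Cldn8, 0.98 for the serotonin synthesis gene Tph2 and 0.97 for Chgb, a granin of secretory granules. It was 0.97 for Tmem255a and 0.96 for Sftpd, and over the 6 group means r was 0.98 to 1.00 for the 5 genes. Arrays of a group share that group's state, so these values describe likeness only. Ivd, Cldn8 and Tph2 belong to the study's signature, picked for its rise in pregnant islets, so a shared rise in islets came with that choice. Group means of Cldn8 went from 5.0 to 9.32 in islets, where those of Ivd went from 9.45 to 11.43. For Auh the closest genes were Mrpl16 (r = 0.95), Anxa4 (0.94) and Cmpk1 (0.93). Among the members themselves, r over the 20 arrays was 0.82 for Dbt with Mccc1, 0.73 for Auh with Mccc1, 0.66 for Ivd with Bcat2 and -0.73 for Bcat2 with Auh. Within groups, after group means were subtracted, r was 0.79, 0.45, -0.0044 and -0.44 for the same pairs, so the likeness of Ivd and Bcat2 lay in their group means. Ivd had a within-group r of 0.68 with Mccc1, 0.66 with Dbt, 0.63 with Acadsb and 0.585 with Auh. Over the 20 arrays the same pairs stood at -0.53, -0.21, -0.051 and -0.43. With the remaining members its within-group r ran from -0.205 (Bckdhb) to 0.32 (Mccc2).

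**Figure D5:**
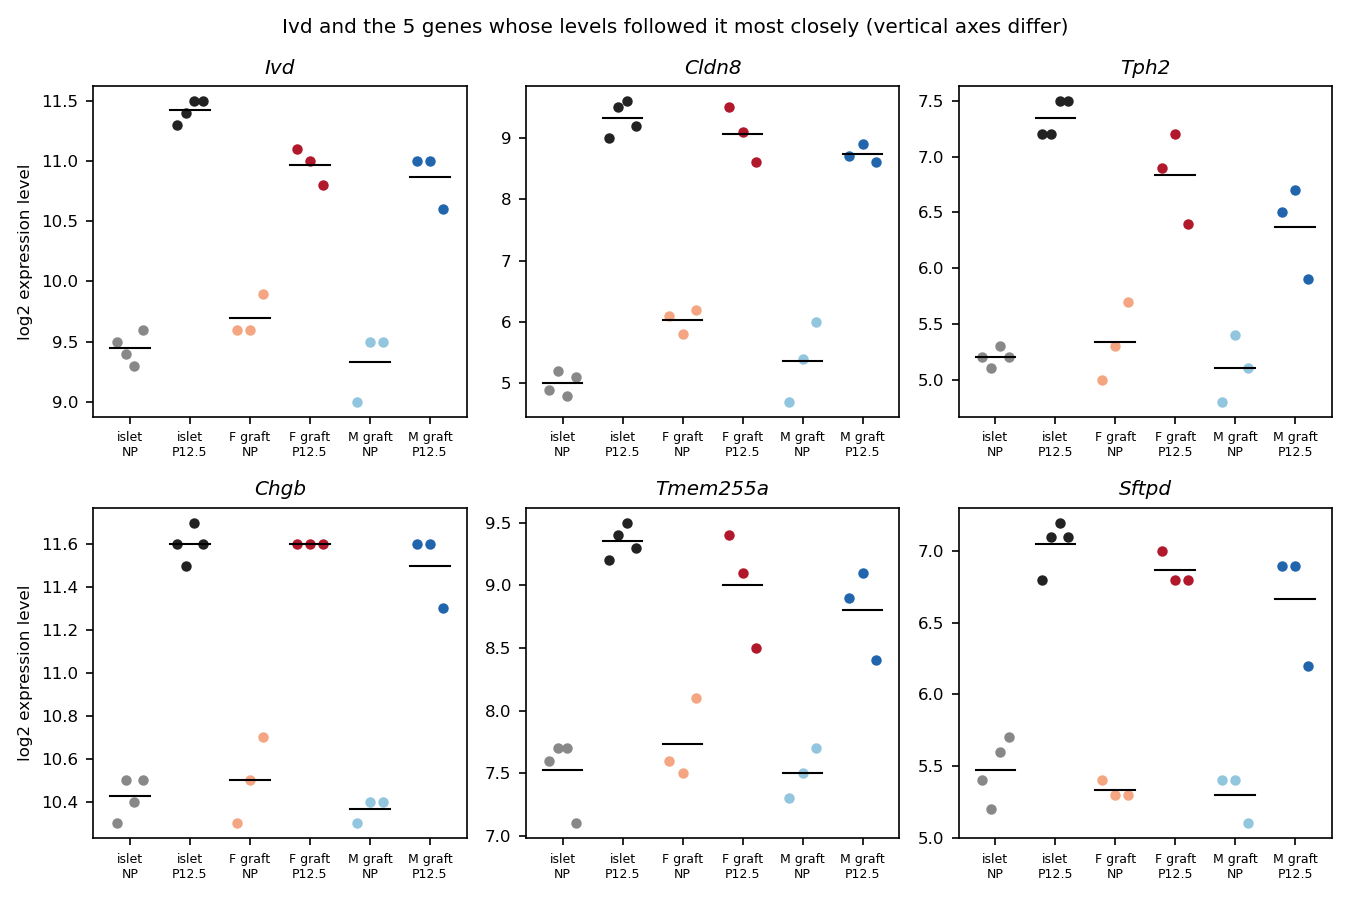
Log2 expression level (vertical axes, each with its own scale) of Ivd and the 5 genes with the highest Pearson's r to it, on each array of the 6 groups (horizontal axis). Points are arrays and bars are group means; in all 6 panels every P12.5 array lies above every NP array, with mean levels of Cldn8 of 5.0 and 9.32 in islets and of Chgb of 10.4 and 11.6.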

How the data were processed

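RNA of 8 islet samples and 12 islet grafts had been hybridised on Affymetrix MoGene 1.0 ST arrays. The deposited table holds log2 expression values, which the authors made in R with robust multichip analysis in aroma.affymetrix (background adjustment, quantile normalization and a summary per probe set). The values are rounded to 1 decimal, which sets a coarse step for small changes, and normalization between arrays hides a change common to all genes. No genome build for the probe sets is given in the sources used here. Replicate arrays of a group correlated across probe sets, which depend on each other, at r = 0.971 to 0.989. Precision is limited by how many arrays each group has. The labels call the samples biological replicates without naming animals. A p-value therefore measures the spread among arrays, and whether each array stands for its own animal is not given.

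Of 35511 probe sets, 21789 carry 1 gene symbol in the array annotation, 1621 carry several and 12101 carry none; 21698 matched the reference table by Entrez identifier (0 symbols changed). Where a gene had several single-symbol probe sets, the one of highest mean on the 20 arrays stood for it. Groups were compared with limma 3.58.1 in R 4.3.3 (lmFit and eBayes, two-sided, Benjamini-Hochberg over all probe sets) on 8 arrays for islets, 12 for grafts and 20 for grafts against islets. Calls required an adjusted p under 0.05 and a fold change of at least 1.5, the cut-offs of the study. For pregnancy in grafts the study tested only a list of genes altered at P12.5 in earlier work. Here p was adjusted over all probe sets, so calls in those comparisons are not on the same footing. The code was tested on simulated data.

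The members, lists and tests were chosen with earlier results of these data known. The genes named are the members, each gene called on a pathway list in any comparison, Bcat1, Dld, Bckdk, Ppm1k, Acad8, Slc25a44, Slc7a5 and Glud1 whatever their values (a further gene of this rule is not reported here), and the 5 genes with the highest r to Ivd and 3 to any other called member. Promoters came from RefSeq GRCm38.p6. Alternatives covered array centring, normalization, a filter on dim probe sets, the variance trend, the arrays fitted, each array left out, the replicate number as a block and the kidney marker mean as a covariate. Grafts of both donor sexes in place of female grafts against islets were added after the data were seen.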

Additional observations from a re-analysis of the deposited data

Results flagged for a closer look

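The Mccc1 level of P12.5 islet replicate 2 stood apart from its group: it was 7.6 where the other 3 arrays were 7.5. The gap is 1 step of the rounding of the deposited values, and with the other 3 arrays tied that step was enough. Chance sets apart about 1 in 20 groups of unrounded values, a rate that need not hold for rounded ones.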

How the results depend on the processing

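The rise of Ivd in the 4 pregnancy comparisons was refitted 61 times (1.20 to 2.03) and stayed called 58 times. It was lost in female grafts without P12.5 replicate 2 and with the kidney covariate (1.34), and in male grafts fitted alone (1.53, adjusted p = 0.0626). Members called moved to 2 in female (with Mccc1) and 2 in male grafts (with Auh) with all 20 arrays fitted, and to 2 (female, with Mccc1), 0 (male) and 1 (graft minus islet response, Mccc1) with the contrast's groups alone. With the kidney covariate 0 members were called in female grafts. Leaving out arrays gave 0 to 1 members in female grafts, 1 to 2 in male grafts and 1 to 3 over both sexes. Probe sets called (257 in islets, 602 in female and 331 in male grafts, 1408 over both sexes, 5 and 4 between sexes in NP and P12.5 hosts, 1438 for grafts against islets at P12.5, 18 for their responses) moved to 1720, 1059, 15 (NP) and 49 (P12.5) with all 20 arrays, to 305 (female), 13 (male) and 231 (responses) with the contrast's groups alone, to 3 (female) and 663 (both) with the kidney covariate, to 542 (male) and 10 (responses) with array medians subtracted, to 32, 33 and 36 (responses) with renewed quantile normalization, without dim probe sets and with an intensity trend, and to 2263 (P12.5) and 265 (responses) with grafts of both sexes, chosen after the data were seen. Subtracting array medians also moved the share of called probe sets that were higher in pregnancy, from 49.3% to 37.4% in female grafts, from 51.4% to 23.4% in male grafts and from 49.6% to 32.8% over both; for responses it moved from 66.7% to 40.0%. With an array left out, probe sets called ranged over 48 to 260 (female), 46 to 479 (male), 4 to 25 (between sexes, NP), 771 to 1417 (P12.5 grafts against islets) and 1 to 15 (responses). Same-numbered arrays did not correlate above 0.1 throughout any pair of groups, so numbers were not read as pairs. The highest r were 0.375 and 0.278, for replicates 3 and 2 of female with male P12.5 grafts, whose replicate 1 gave 0.042. What such arrays share is not given in the labels. The replicate block gave 132 probe sets in islets, 266 in female and 124 in male grafts and 1 for the difference between sexes. It changed no call of a member, though Slc43a1 (0.64) and Aldh6a1 (0.62) in NP grafts against islets and Acad8 in female grafts (-0.73) lost theirs. Differences of at most 0.40 changed sign. With renewed quantile normalization this held for Auh in islets (-0.034) and Bckdha in NP grafts against islets (-0.0058); with medians subtracted for Bckdhb over both grafts (-0.033), Bckdhb (0.0083) and Mccc2 (0.017) in NP grafts against islets and Bckdhb in responses (-0.025); with the block for Bckdha (-0.017); with both sexes for Bckdhb (0.067, and -0.17 in responses); with the kidney covariate for Slc7a5 (-0.036) and Slc7a7 (0.033) over both grafts. With an array left out, ranges crossed 0 in islets for Dbt (-0.017 to 0.083), Auh (-0.042 to 0.092), Slc7a7 (-0.033 to 0.067), Slc25a44 (-0.058 to 0.0083) and Glud1 (-0.13 to 0.0083), between sexes at P12.5 for Ivd (-0.18 to 0.033), in grafts against islets for Bckdha (-0.10 to 0.20) and Mccc2 (-0.13 to 0.033) in NP and Bcat2 (-0.10 to 0.15) and Auh (-0.33 to 0.025) at P12.5, and in responses for Bckdhb (-0.017 to 0.10). Over the single genes, 1609 of 1688 refitted values kept direction and side of the threshold. The causes were not tested. No member has a second single-symbol probe set, so those alternatives gave no values for members.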
